A study of Mus musculus with 6 samples.

Results

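The S100 and annexin genes described here are 10 genes of 2 families of calcium-binding proteins, among the 12027 genes of the deposited count table. They are 4 S100 genes (S100a6, S100a10, S100a11 and S100a13) and 6 annexin genes (Anxa2, Anxa3, Anxa4, Anxa5, Anxa6 and Anxa7). Each was found by its Ensembl identifier, all 10 had a row, and they were chosen by their CPM in the 6 libraries and their ratios between knockout and control. Those values are therefore given as a description, with no test.

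Messenger RNA of whole liver was sequenced after partial hepatectomy (PHX), an operation that takes out some liver lobes, in male C57BL/6 mice, 8 weeks old. All 6 groups had the operation. They were OGA-KO (genotype OGA-/-) and OGA control (OGAfl/fl) at 14 days, OGA-KO and OGA control at 28 days, and OGT-KO (OGT-/y) and OGT control (OGTfl/y) at 28 days. OGT attaches the sugar O-GlcNAc to proteins inside the cell and OGA removes it. Both knockouts were specific to hepatocytes per the series' design text, so other liver cells keep the gene, and the Cre driver is not given in the sources used here. Each group was 1 library made from the pooled RNA of 3 mice, which leaves no replicate error to hold a difference against.

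S100 proteins are small proteins that mostly work as dimers and, on binding calcium through their EF-hand loops, dock onto other proteins. Annexins bind to negatively charged membrane lipids in the presence of calcium, and take part in membrane repair, vesicle traffic and the attachment of actin to membranes. The families meet in complexes, the best known of which joins S100A10 and annexin A2 at the cell surface, where it binds plasminogen and its activator. In liver, several of these proteins are made by bile duct cells, stellate cells and macrophages as well as by hepatocytes.

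Library totals ranged from 20433100 to 29327722 counts. Levels are given in CPM, the count scaled to a library size that was corrected for composition by the TMM method, and ratios are log2 values with a 95% counting interval. At 0 counts, the upper limit is 3 counts (0.107 to 0.13 CPM). Intervals and limits cover counting error only, because each group was 1 library. The reads also carry no molecular identifiers, so repeated reads of 1 molecule cannot be told from reads of different molecules. Genes were counted as different by size when they differed by at least 2-fold and had at least 1 CPM in the higher library. Oga had 10.4 CPM in OGA-KO against 62.2 in OGA control at 14 days, and 12.8 against 67.2 at 28 days. Ogt had 1205 counts in OGT-KO against 1339 in OGT control (log2 -0.43, -0.54 to -0.31), so the count of the whole gene is no clear check of that label.

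Promoter sequences are shown for S100a6, whose ratio in OGT-KO was the highest of the 10 genes, and for S100a11 and Anxa2, whose promoters were those among the members that held the AP-1 word. They run from 250 bases before to 50 after the start of the gene and come from RefSeq on build GRCm38.p6, not the mm39 build named in the submitters' processing notes. The windows are chr3:90612644-90612943 (plus strand) for S100a6, chr3:93520246-93520545 (plus strand) for S100a11 and chr9:69453433-69453732 (plus strand) for Anxa2. Capitals mark exact matches on either strand to any of 5 short words. The AP-1 word is TGANTCA and the word of the TEAD factors is GGAATG. The word searched as a basal promoter box was TATAAA. The word bound by NF-Y was CCAAT, and the word of the Sp1 family, or GC box, was GGGCGG. No pair of matches overlapped.
S100a6: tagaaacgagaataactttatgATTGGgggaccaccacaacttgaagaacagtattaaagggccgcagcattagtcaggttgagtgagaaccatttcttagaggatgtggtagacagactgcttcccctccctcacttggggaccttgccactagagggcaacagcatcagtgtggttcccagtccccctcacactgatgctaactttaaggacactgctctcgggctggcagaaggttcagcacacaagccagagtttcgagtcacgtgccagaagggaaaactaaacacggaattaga
S100a11: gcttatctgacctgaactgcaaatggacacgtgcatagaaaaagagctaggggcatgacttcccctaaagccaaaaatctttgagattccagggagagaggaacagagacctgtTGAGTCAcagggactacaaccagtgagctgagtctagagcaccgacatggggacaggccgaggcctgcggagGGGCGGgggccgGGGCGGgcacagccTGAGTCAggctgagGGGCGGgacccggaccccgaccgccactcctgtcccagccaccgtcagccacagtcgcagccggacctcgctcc
Anxa2: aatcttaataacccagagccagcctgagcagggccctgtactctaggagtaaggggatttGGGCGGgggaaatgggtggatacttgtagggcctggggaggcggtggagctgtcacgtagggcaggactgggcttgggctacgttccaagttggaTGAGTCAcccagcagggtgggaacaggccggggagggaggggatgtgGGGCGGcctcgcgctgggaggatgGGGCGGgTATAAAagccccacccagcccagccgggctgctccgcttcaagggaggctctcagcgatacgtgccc

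The 3 promoters differed in these words. S100a6 held a single match, the NF-Y word on the opposite strand with its first base at position -228 from the start. S100a11 held the AP-1 word at -136 and -38 and 3 GC boxes, and Anxa2 held the AP-1 word at -95, the basal box at -17 and 3 GC boxes. Of the 7 members with a promoter sequence in the table, 2 held the AP-1 word, against 8.97% of all 27025 genes with a sequence and 6.33% of the 9524 of these that had a row. None of the 7 held the TEAD word, which 16.6% of all genes and 14.6% of those with a row did. The GC box was in 4 of 7 members (Anxa4 and Anxa7 besides S100a11 and Anxa2), against 38.2% of all genes and 67.3% of those with a row. A match is a description of the letters and not of a bound site. S100a10, Anxa3 and Anxa6 are named only.

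In the OGA libraries S100a10 was the most abundant of the 10 genes per kilobase of exon and Anxa3 the least. Over these 4 libraries S100a10 ranged from 73.4 to 88.3 CPM per kilobase. Anxa5 (32.4 to 45.2) and Anxa6 (42.5 to 46.9) came next, and their ranges overlapped. S100a13 (22.6 to 30.0), Anxa7 (15.3 to 19.5), Anxa4 (8.98 to 9.87) and S100a11 (6.06 to 8.26) followed without overlap between neighbours. Anxa2 (2.57 to 3.12) lay below them, and S100a6 (0.671 to 2.48) and Anxa3 (0.566 to 0.988) overlapped at the bottom. In OGT control S100a10 was again the highest at 80.7 CPM per kilobase. In OGT-KO the order differed: S100a11 was at the top with 375 CPM per kilobase, from rank 6 in OGT control, and Anxa5 (208), S100a10 (175), S100a6 (144) and Anxa2 (133) came after it. The exon lengths come from GENCODE M21.

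Summed over the 10 genes, the level was 1954 CPM in OGT-KO against 611 CPM in OGT control. The sums were 504 CPM in OGA-KO against 468 CPM in OGA control at 14 days, and 487 against 454 CPM at 28 days. The sum in OGT-KO thus stood apart from all 5 other libraries, and OGT control was the next highest.

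**Figure D1:**
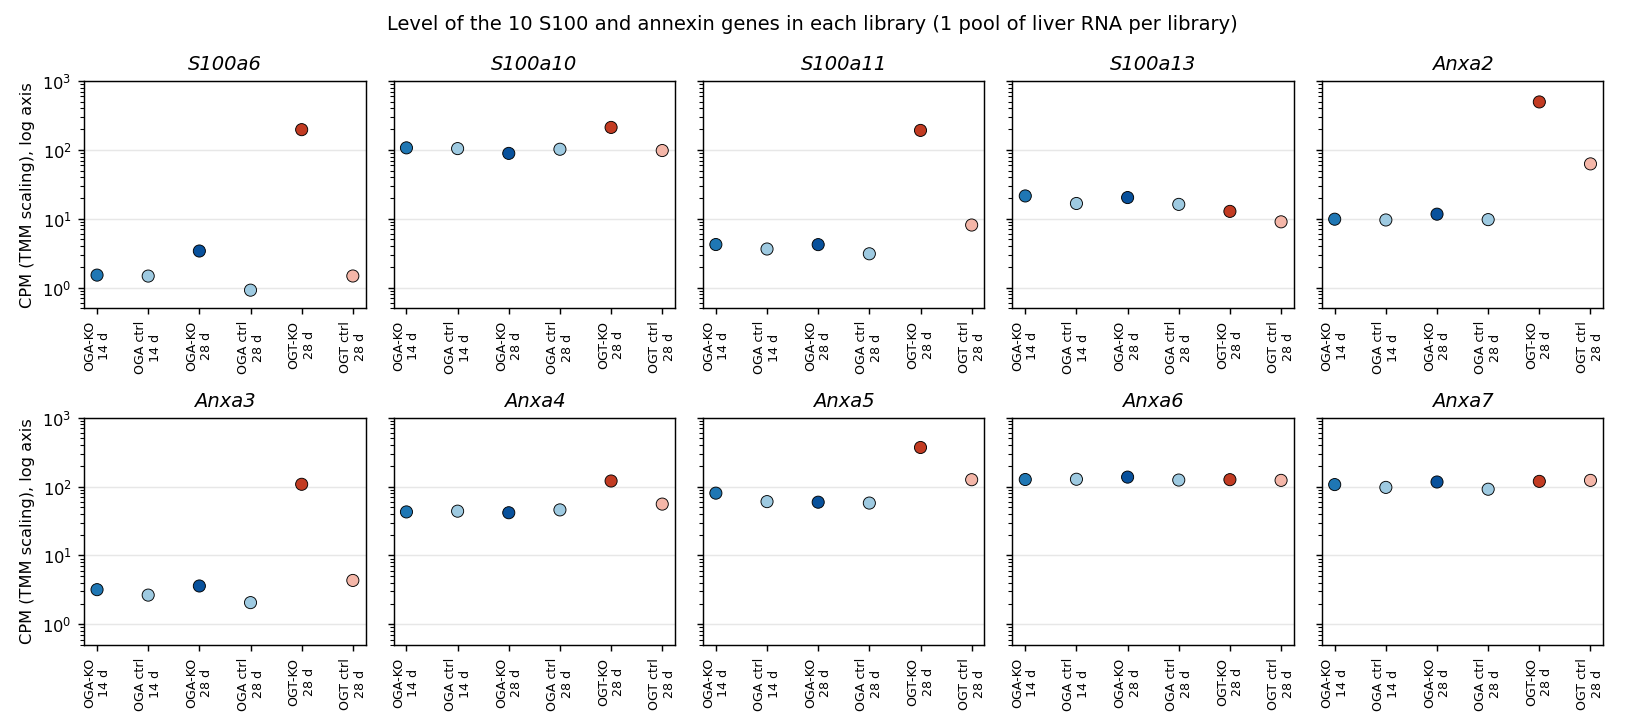
Levels of the 10 S100 and annexin genes in the 6 libraries, as CPM with TMM scaling on a log axis, 1 point per pooled library. S100a6, S100a11, Anxa2 and Anxa3 stand far higher in OGT-KO than in any other library, while Anxa6 lies between 123 and 137 CPM in all 6.

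In OGT-KO liver at 28 days, 7 of the 10 genes were at least 2-fold higher than in OGT control and none was at least 2-fold lower. Over the 11803 genes that reached 1 CPM in one or both libraries, 16.4% were higher by the same rule and 11.7% lower. Since the ratios of this pair were known when the genes were chosen, nothing is read from that comparison of shares. The median log2 ratio of the 10 genes was 1.33, and that of all genes -0.00061. By library totals, without the correction for composition, the median of all genes moved up by 0.371. The split of genes past the rule was then 2832 higher and 832 lower, against 1937 and 1383 with it. The same 7 members passed by either scaling. In bulk liver, more cells of a type and more RNA per cell cannot be told apart.

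S100a6, or calcyclin, which binds the calcyclin-binding protein CacyBP, had the widest ratio. It had 5492 counts (197 CPM) in OGT-KO, against 34 counts (1.47 CPM) in OGT control. The log2 ratio was 6.99 (6.58 to 7.59), the fifth highest of the 11803 genes. At 14 days OGA-KO held 41 counts and OGA control 36, and at 28 days OGA-KO held 84 and OGA control 24. OGT-KO was therefore the one library with more than 84 counts of this gene.

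S100a11, which is known to bind the N-terminal tail of annexin A1, was likewise highest in OGT-KO. It had 5356 counts (192 CPM) in OGT-KO, against 187 counts (8.10 CPM) in OGT control (log2 4.55, 4.35 to 4.78). The OGA libraries had 114 in OGA-KO and 89 in OGA control at 14 days, and 104 and 81 at 28 days. OGT control was already above these by CPM. A processed pseudogene, S100a11-ps, has no row in the count table, and how reads shared with it were counted is not given in the sources used here.

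S100a10, the annexin A2 partner whose EF-hand loops no longer bind calcium, differed less. It had 5919 counts (212 CPM) in OGT-KO, against 2258 (97.8 CPM) in OGT control (log2 1.12, 1.05 to 1.19). Its other levels were 107 CPM in OGA-KO and 104 CPM in OGA control at 14 days, and 88.9 and 102 CPM at 28 days. The 5 libraries other than OGT-KO lay within 1.20-fold of one another.

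S100a13, which takes part in the export of the growth factor FGF1, did not pass the size rule. It had 357 counts (12.8 CPM) in OGT-KO, against 208 (9.01 CPM) in OGT control (log2 0.50, 0.25 to 0.76). All 4 OGA libraries, at 16.2 to 21.4 CPM, were above both OGT libraries, so that against the OGA control of 28 days the log2 ratio of OGT-KO was -0.34. In RefSeq it shares 98 bases with its neighbour S100a1 at the gene ends, and whether the counting used strand is not given in the sources used here, so its counts are uncertain there.

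Anxa2, which links membranes to actin and forms the complex with S100A10, had the highest CPM of the 10 genes in OGT-KO. It had 13878 counts (497 CPM) in OGT-KO, against 1445 (62.6 CPM) in OGT control (log2 2.99, 2.91 to 3.07). The OGA libraries had 266 counts in OGA-KO and 235 in OGA control at 14 days, and 288 and 254 at 28 days, which are 9.59 to 11.6 CPM. The libraries fell into 3 levels, with OGT-KO on top, OGT control between, and the 4 OGA libraries close together.

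Anxa3 had 3015 counts (108 CPM) in OGT-KO, against 100 (4.33 CPM) in OGT control. The log2 ratio was 4.61 (4.35 to 4.94). It had 86 and 65 counts in OGA-KO and OGA control at 14 days, and 89 and 54 at 28 days. OGT-KO stood alone, and the other 5 libraries lay between 2.06 and 4.33 CPM.

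Anxa5, known for its tight binding to phosphatidylserine on dying cells, had 10323 counts (370 CPM) in OGT-KO, against 2905 (126 CPM) in OGT control (log2 1.55, 1.495 to 1.615). Its level was 80.3 CPM in OGA-KO and 60.5 CPM in OGA control at 14 days, and 59.3 and 57.6 CPM at 28 days. Both OGT libraries were above all 4 OGA libraries.

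Anxa4, an annexin of epithelial cells such as those of the bile ducts, had 3365 counts (121 CPM) in OGT-KO, against 1285 (55.7 CPM) in OGT control (log2 1.11, 1.02 to 1.21). The OGA libraries held 41.7 to 45.8 CPM. The interval's lower bound lies close to the 2-fold line.

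Anxa6, the annexin with a doubled core that sits on late endosomes and the plasma membrane, did not differ beyond counting error in OGT-KO with TMM scaling. It had 3519 counts (126 CPM) in OGT-KO, against 2842 (123 CPM) in OGT control (log2 0.03, -0.04 to 0.11), while by library totals the log2 ratio was 0.41 and with upper quartile factors 0.15. Anxa7, or synexin, described for its role in the fusion of secretory granules, had 3324 counts (119 CPM), against 2841 (123 CPM) (log2 -0.05, -0.12 to 0.02). By library totals the log2 ratio of Anxa7 was 0.32, so its direction depends on the scaling. Across all 6 libraries Anxa6 ranged from 123 to 137 CPM and Anxa7 from 91.5 to 123 CPM.

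The 10 genes thus formed 3 classes by size in OGT-KO. S100a6, S100a11, Anxa2 and Anxa3 differed by at least 4-fold, with log2 ratios of 2.99 to 6.99. S100a10, Anxa4 and Anxa5 lay between 2-fold and 4-fold (1.11 to 1.55), and S100a13, Anxa6 and Anxa7 under 2-fold (-0.05 to 0.50). The S100 genes had a median of 2.83 with 3 of 4 past the rule, and the annexins a median of 1.33 with 4 of 6. The members with the lowest CPM in OGT control, S100a6, Anxa3 and S100a11, had the highest ratios, though a low control value enters the ratio itself.

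**Figure D2:**
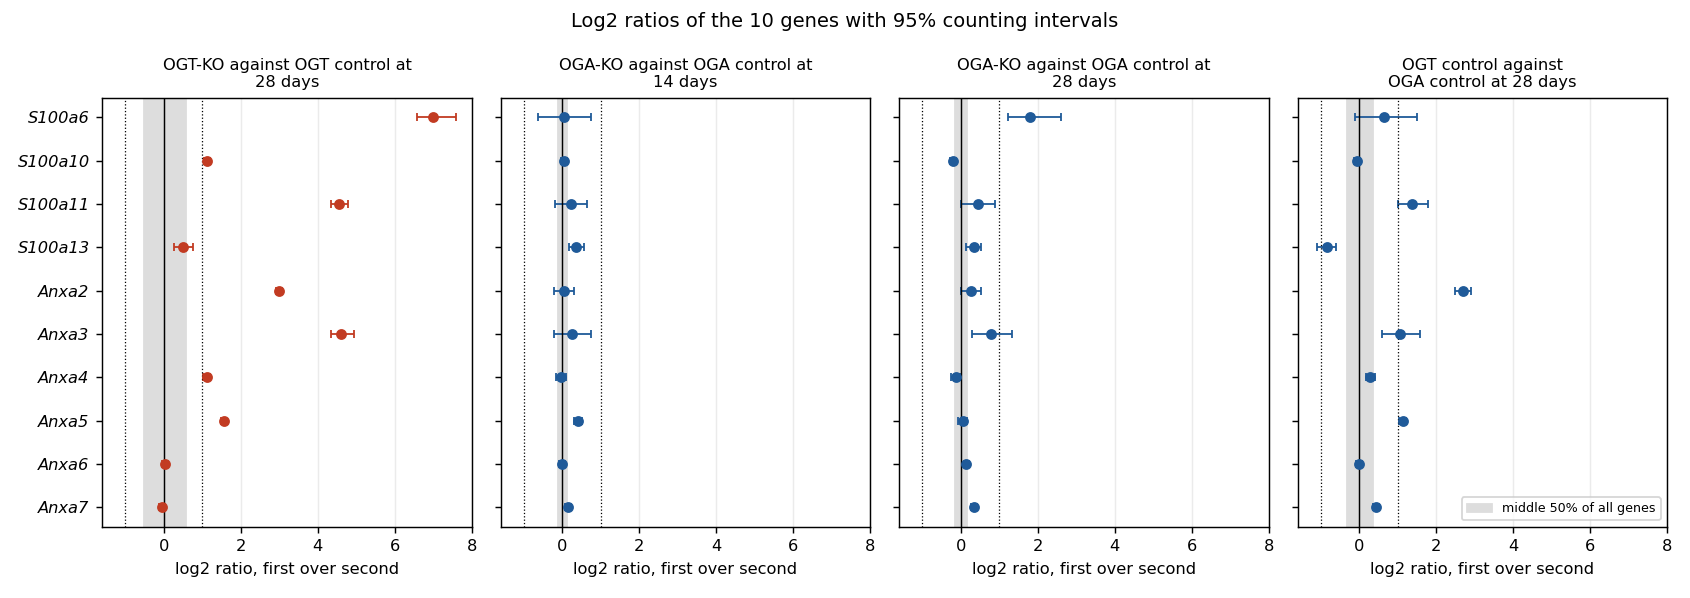
Log2 ratios of the 10 genes (points) with 95% counting intervals (bars) in the 3 knockout to control pairs and between the control lines, with the middle 50% of all genes shaded and the 2-fold lines dotted. The ratios in OGT-KO reach 6.99 for S100a6, those in OGA-KO reach 1.80 at 28 days and 0.41 at 14 days, and Anxa2 stands at 2.68 between the controls.

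The OGT control itself differed from the OGA control of the same day. Of the 10 genes, 4 were at least 2-fold higher in OGT control and none lower, where 4.72% of 11782 genes were higher and 5.72% lower. Anxa2 led with a log2 ratio of 2.68 (2.50 to 2.89), placing it 26th among these genes from the top. S100a11 (1.37, 1.005 to 1.783), Anxa5 (1.13, 1.04 to 1.22) and Anxa3 (1.04, 0.58 to 1.58) followed, and S100a13 was lower (-0.84, -1.09 to -0.60). S100a10 (-0.06) and Anxa6 (-0.02) had intervals that included 0. Marker lists of other cells differed both ways. In OGT control the 17 Kupffer cell and macrophage markers summed to 449 CPM, against 243 CPM in OGA control, the 22 stellate cell and fibroblast markers to 397 against 244 CPM, and the 13 cholangiocyte and progenitor markers to 186 against 166 CPM. Lower in OGT control were the sums of the endothelial markers (346 against 408 CPM), the mesothelial markers (4.29 against 7.79 CPM), the neutrophil markers (2.77 against 3.51 CPM) and the T, NK and B cell markers (2.25 against 4.47 CPM). Their part in the members' values was not tested, and line, pool and any difference in processing cannot be told apart with 1 library each.

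Set against the OGA control of 28 days, OGT-KO had a log2 ratio of 7.63 for S100a6, 5.92 for S100a11, 5.67 for Anxa2, 5.66 for Anxa3 and 2.68 for Anxa5. The same 7 genes passed the size rule with either control. The ratio of Anxa2 thus depended most on the control chosen, at 2.99 with OGT control.

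Anxa2 and S100a10, whose proteins form a complex, had unequal ratios. Of the counts of both genes together, Anxa2 made up 70.1% (69.5 to 70.7, exact Clopper-Pearson interval) in OGT-KO, against 39.0% (37.4 to 40.6) in OGT control. In the OGA pairs its share was 8.42% in OGA-KO against 8.41% in OGA control at 14 days, and 11.6% (10.3 to 12.9) against 8.67% (7.68 to 9.75) at 28 days. Per kilobase of exon, S100a10 was 1.31-fold above Anxa2 in OGT-KO and 4.81-fold in OGT control, and 23.5-fold to 33.5-fold in the OGA libraries. Anxa2 shares 98 exon bases, 2.63% of its exons, with an antisense gene that has no row.

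**Figure D3:**
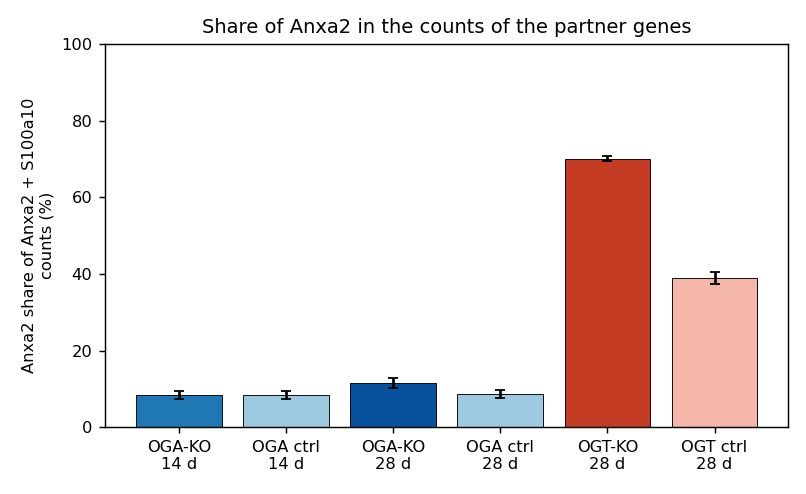
Share of Anxa2 in the summed counts of Anxa2 and S100a10 in each library (percent, bars from 0, with 95% exact binomial intervals). The share is 70.1% in OGT-KO and 39.0% in OGT control, and 8.41% to 11.6% in the 4 OGA libraries.

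In OGA-KO at 14 days no member passed the size rule in either direction, where 0.839% of 11801 genes did (0.534% higher and 0.305% lower). The ratios ran from -0.04 for Anxa4 to 0.41 for Anxa5, with a median of 0.09. Counting intervals lay above 0 for 3 genes and below 0 for none, where those of 16.9% of all genes lay above and 14.8% below. Anxa5 had 2170 counts in OGA-KO against 1482 in OGA control (0.41, 0.31 to 0.51), S100a13 had 579 against 408 (0.36, 0.18 to 0.55), and Anxa7 had 2889 against 2385 (0.14, 0.06 to 0.21). S100a6, at 41 against 36 counts, had an interval of -0.64 to 0.73, so no difference was detectable at this depth.

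In OGA-KO at 28 days S100a6 alone passed the size rule, with 84 counts (3.40 CPM) in OGA-KO against 24 (0.917 CPM) in OGA control. Its log2 ratio was 1.80 (1.22 to 2.61), where 1.7% of 11851 genes were higher and 0.869% lower by the rule. Anxa3 was next with 89 against 54 counts (0.78, 0.30 to 1.32), and S100a11 had 104 against 81 (0.43, 0.01 to 0.88). Anxa7 (0.35), S100a13 (0.33), Anxa2 (0.26) and Anxa6 (0.14) also had intervals above 0, and S100a10 (-0.20, -0.28 to -0.12) and Anxa4 (-0.14, -0.26 to -0.02) below it, where those of 22.2% of all genes lay above and 20.3% below. The median of the 10 genes was 0.29, against 0.00449 for all genes.

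This OGA-KO library at 28 days also held RNA of pancreas genes. The 12 exocrine pancreas markers with a row summed to 226 CPM in OGA-KO against 27.3 CPM in OGA control, in which 10 of them were at 0. The 7 mesothelial markers summed to 13.6 against 7.79 CPM and the 4 neutrophil markers to 6.15 against 3.51 CPM. At 14 days the mesothelial sums were 17.9 CPM in OGA-KO and 13.2 CPM in OGA control, and the neutrophil sums 5.96 and 6.98 CPM. For both lists OGA control at 28 days was thus the lowest OGA library, and OGA-KO at 28 days was not the highest. Stellate cell and fibroblast markers summed to 273 against 244 CPM at 28 days (354 against 260 at 14 days). Kupffer cell and macrophage markers summed to 304 against 243 CPM (274 against 257 at 14 days). The hepatocyte markers differed little, at 114351 against 114571 CPM. Whether RNA of these other cells carried part of the S100a6 counts was not tested. With a minimum of 5 CPM in the higher library, no member passed.

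Between the days, the OGA controls differed in no member by 2-fold, where 0.927% of 11758 genes did (0.519% higher at 28 days and 0.408% lower). S100a6 had 24 counts at 28 days against 36 at 14 days (log2 -0.64, -1.49 to 0.10). In OGA-KO, S100a6 was 2-fold higher at 28 than at 14 days (84 against 41 counts, 1.12, 0.61 to 1.74), where 0.97% of 11858 genes were. Anxa5 was lower at 28 days in OGA-KO, with 1467 counts against 2170 (-0.44, -0.53 to -0.34). For S100a6 the difference between days was thus above counting error in OGA-KO and within it in OGA control.

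Taking the difference between the knockout ratios at 28 days, OGT-KO exceeded OGA-KO in 7 genes by more than counting error and lay below it in 2. Of the 11989 genes with at least 1 CPM in some library of that day, 34.8% lay above and 35.7% below by the same interval. The difference in log2 ratio was 5.18 (4.37 to 5.99) for S100a6, 4.12 (3.65 to 4.59) for S100a11, 3.83 (3.27 to 4.40) for Anxa3 and 2.73 (2.47 to 2.98) for Anxa2. It was -0.40 (-0.50 to -0.29) for Anxa7 and -0.11 (-0.21 to -0.01) for Anxa6. For S100a13 the interval was -0.14 to 0.48. These intervals hold counting error only, and the knockouts also differ in line and control.

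Other members of both families were unevenly placed. Of 13 other S100 genes listed, 4 had a row and 9 were not analysed here. S100a8 and S100a9, the calprotectin subunits of neutrophils and monocytes, were higher in OGT-KO than in OGT control. S100a8 had 122 against 7 counts (log2 3.54, 2.76 to 5.19) and S100a9 had 75 against 5 (3.23, 2.35 to 5.30). The OGA libraries held 22 to 39 counts of S100a8 and 17 to 48 of S100a9. OGT control was thus the lowest library for both genes, and OGT-KO the highest. S100a1, best known from heart muscle, was lower, with 645 counts in OGT-KO against 1367 in OGT control (-1.36, -1.496 to -1.222), and S100a16 had 271 against 292 (-0.38, -0.63 to -0.14). S100a9 also passed the rule in OGA-KO at 28 days, with 37 against 17 counts. At 14 days S100a9 had 43 counts in OGA-KO and 48 in OGA control. OGA control at 28 days was thus its lowest OGA library, and OGA-KO at 28 days was not above the libraries of 14 days. Of 6 other annexins 4 had a row. Anxa1, an anti-inflammatory protein induced by glucocorticoids, had 438 counts in OGT-KO against 41 in OGT control (3.09, 2.68 to 3.64). Anxa9 had 128 against 42 (1.30), Anxa8 31 against 5 (2.01), and Anxa11 516 against 444 (-0.06, -0.24 to 0.13). None of these annexins passed the rule in OGA-KO at either day. Anxa8 missed it at 28 days only by its level, with 24 against 7 counts (1.60, 0.60 to 3.32) and 0.97 CPM in OGA-KO. At 14 days Anxa8 had 32 counts (1.18 CPM) in OGA-KO and 26 (1.06 CPM) in OGA control, near the 1.11 CPM of OGT-KO. Its level was thus low in both controls of 28 days.

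The S100 genes of chromosome 3 stand side by side, and neighbours had ratios of both signs in OGT-KO. In RefSeq order the stretch from S100a1 to S100a9 holds 12 protein-coding genes, all of the S100 family, of which 6 had a row. Their log2 ratios in that order were -1.36 for S100a1, 0.50 for S100a13, -0.38 for S100a16, 6.99 for S100a6, 3.54 for S100a8 and 3.23 for S100a9. S100a11 (4.55) and S100a10 (1.12) are neighbours farther along the chromosome. S100a8 and S100a9 had overlapping intervals, while those of S100a11 and S100a10 did not overlap.

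Genes of the plasminogen system, which the S100A10 and annexin A2 complex serves, were mostly higher in OGT-KO by number. Their summed level was lower, at 2541 CPM in OGT-KO against 4722 CPM in OGT control. Of 11 with a row, 6 passed as higher and 2 as lower, where 16.4% and 11.7% of all genes did, with a median log2 ratio of 2.42. Plat, the tissue plasminogen activator, had 3462 counts in OGT-KO against 13 in OGT control (7.60, 7.01 to 8.69). The matrix proteases Mmp14 (3.18) and Mmp2 (3.12) were higher as well. Mmp14 was at 117 CPM in OGT-KO and 12.9 CPM in OGT control, but at 33.0 to 43.6 CPM in the OGA libraries. OGT control was thus its lowest library. Plg, plasminogen itself, which hepatocytes secrete, was lower, with 20441 against 46639 counts (-1.46, -1.49 to -1.44; chosen after its values were seen).

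Of 13 genes of direct partners of these proteins 3 were higher and 2 lower in OGT-KO (median -0.12). These shares are near the 16.4% and 11.7% of all genes. Ahnak, a giant scaffold that binds the S100A10 and annexin A2 complex, had 5098 counts in OGT-KO against 466 in OGT control (3.17, 3.04 to 3.32), and its relative Ahnak2 stood at 3.68. Fgf1, the cargo exported with S100A13, had 603 against 2049 counts (-2.04, -2.17 to -1.91), and Syt1, whose protein joins that export complex, 62 against 157 (-1.58). Cacybp, which encodes the calcyclin-binding protein, was at 0.00 (-0.17 to 0.17; chosen after its values were seen), beside a log2 ratio of 6.99 for S100a6.

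Of 21 membrane repair genes 7 were higher and none lower in OGT-KO (median 0.53), led by Myof, or myoferlin, with 2644 against 103 counts (4.38) and the caveola genes Cav2 (3.01), Ehd2 (2.61) and Cavin1 (2.32). Of 23 other EF-hand genes 4 were higher and 1 lower (median 0.32), with Nucb2 at 2.49, Rcn3 at 1.89, Rcn1 at 1.72 and Letm1 at -1.87. Of 14 genes with C2 domains, another lipid-binding fold, 7 were higher and 1 lower (median 0.83), with Plcd3 at 3.19, Cpne2 at 2.07, Cpne8 at 1.86 and Prkcb at 1.85. Cpne2 was at 12.0 CPM in OGT-KO and 2.82 CPM in OGT control, but at 12.0 to 14.4 CPM in the OGA libraries. OGT control was thus its one low library. Against the 16.4% of all genes that were higher, the share was 33.3% for membrane repair, 17.4% for other EF-hand genes and 50% for C2 genes, as a description. In OGA-KO these 3 lists held no gene past the rule at 14 days and 1 at 28 days, in the membrane repair list.

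**Figure D4:**
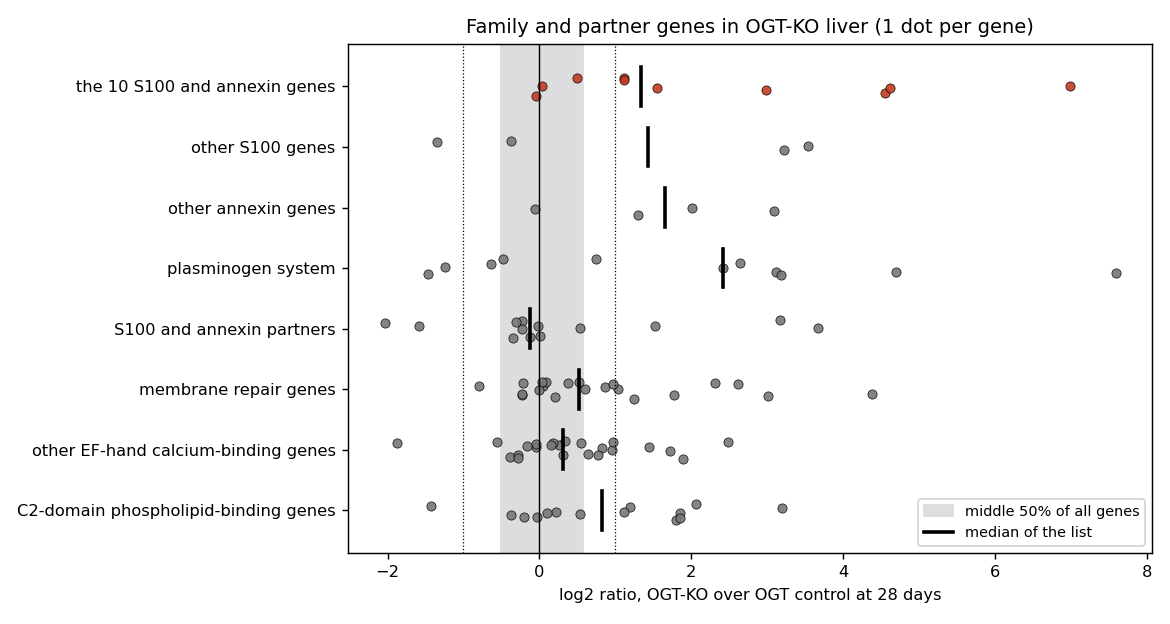
Log2 ratio of OGT-KO over OGT control for each gene with at least 1 CPM (dots) in the 10 S100 and annexin genes and 7 related lists, with the median of each list (black bar) and the middle 50% of all genes shaded. The 10 genes have a median of 1.33, and the other EF-hand genes, at 0.32, lie inside the shaded range.

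Markers of several liver cell types were higher in the same OGT-KO library. All 22 stellate cell and fibroblast markers with a row passed as higher, and their summed level was 3439 CPM in OGT-KO against 397 CPM in OGT control, with 244 to 354 CPM in the OGA libraries. Of 17 Kupffer cell and macrophage markers 15 passed (1829 against 449 CPM, OGA libraries 243 to 304). Clec4f (log2 0.48, 0.39 to 0.57) and Timd4 (-0.19, -0.56 to 0.16) did not, and both were chosen after their values were seen. Of 13 cholangiocyte and progenitor markers 8 passed (666 against 186 CPM, OGA libraries 149 to 166). All 11 cell division genes passed (214 against 28.9 CPM, OGA libraries 18.4 to 26.3). So did 4 of 5 fetal liver genes (5063 against 7.67 CPM, OGA libraries 5.35 to 9.07). Afp alone made up 4732 CPM of that sum in OGT-KO and 3.55 CPM in OGT control. Of 15 endothelial markers 2 were higher and 1 lower (464 against 346 CPM). Their log2 ratios ran from -1.42 for Dnase1l3 to 1.99 for Stab1, with a median of 0.17. Stab1 held 161 CPM of that sum in OGT-KO and 40.4 CPM in OGT control. Of 11 hepatocyte markers none was higher and 4 were lower (65316 against 102628 CPM), and in the OGA libraries they summed to 109019 to 115808 CPM, so hepatocyte markers were abundant in every library, as the liver label says. The neutrophil markers with at least 1 CPM all passed (3 of 3, 19.1 against 2.77 CPM, OGA libraries 3.51 to 6.98). S100a8 and S100a9 were among them, and Ngp was at 0 in OGT control. Of 5 mesothelial markers 2 passed (15.5 against 4.29 CPM), with Upk1b at 0 in OGT control. The mesothelial sums of the OGA libraries were 7.79 to 17.9 CPM, so OGT-KO lay within that range and OGT control below it. Of the pancreas markers 8 of 12 were at 0 in OGT-KO and 10 in OGT control. Of 12 T, NK and B cell markers 2 had a row. The part of these cells in the members' values was not tested.

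Among 9159 other genes with at least 10 CPM in some library, the 5 closest to S100a6 over the 6 libraries included Gpc3, Plat, Mlph and Gpx3. Likeness was the root mean square difference of log2 CPM after centring each gene on its own mean, which was 0.50 for Gpc3 and 0.76 for Gpx3. Gpc3 had 7309 counts in OGT-KO and 21 in OGT control, with 67 and 28 in OGA-KO and OGA control at 14 days and 62 and 16 at 28 days. The genes closest to the mean profile of all 10 members were Csrp1, Coro1a, Pdgfrb, Lbh and Fermt3, with differences of 0.06 to 0.09. Csrp1 had 1620 counts in OGT-KO and 246 in OGT control, and 189 to 241 in the OGA libraries. Pdgfrb is also one of the stellate cell markers above. The points of a profile share their 6 libraries.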

How the data were processed

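Liver mRNA was sequenced in 6 groups of 1 library, with the RNA of 3 mice in a pool and 2 lanes a library. The authors deposited raw counts per Ensembl gene in a table of 12027 rows, with 1 column per library, and a second table of CPM. Tested against the counts, each deposited CPM value was the count divided by 1 constant per library, which was the column total in the OGA libraries and larger in the OGT libraries, leaving 0.769% of the OGT-KO and 0.104% of the OGT control counts outside the rows. Per the submitters' processing notes, STAR, Subread, edgeR and mm39 were used; versions, settings, strand and the row filter are not given in the sources used here. Every row held at least 28 counts over the OGA libraries, so genes expressed mainly in the OGT libraries had less chance of a row.

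From the counts, log2 ratios were computed here by adding a prior count of 2 and scaling to TMM library sizes (calcNormFactors in edgeR 4.0.16 under R 4.3.3), with exact conditional binomial (Clopper-Pearson) intervals. With 1 library per group no p-value is given. The calculation was tested on simulated data that held counting error only. That is the error the intervals assume, so the test cannot speak to differences between pools. Symbols came from GENCODE M21 and RefSeq tables, which matched 12019 rows; the genome build differs, so they gave names, exon lengths, gene order and promoter letters. Alternatives were other scalings, prior counts, CPM and fold limits, and another control. Named were all 10 genes, Ogt and Oga, other S100 and annexin genes with a row, and the 5 nearest genes per profile. Per other list, up to 4 genes could be named, those with the largest absolute log2 ratio in OGT-KO. Genes named outside this rule are marked as chosen after their values were seen, apart from Ngp and Upk1b. Those were named for their 0 counts in OGT control. Members and lists were chosen with earlier results of these data known. Planned protein features were not computed. One gene that the naming rule selects is not reported here.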

Additional observations from a re-analysis of the deposited data

Results flagged for a closer look

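The ratios of 2 genes pointed opposite ways in the knockouts at 28 days, with both counting intervals away from 0. S100a10 stood at 1.12 in OGT-KO against its control and at -0.20 in OGA-KO against its control, a difference of 1.32 (1.21 to 1.42, counting error only). Anxa4 stood at 1.11 in OGT-KO and at -0.14 in OGA-KO, a difference of 1.25 (1.10 to 1.40). With 1 library per group these differences were not tested against replicates, and the OGA-KO ratios are small.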

How the results depend on the processing

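The count of 7 higher members in OGT-KO was kept under each scaling, prior count, CPM minimum, the 1.5-fold limit and the OGA control, and was 4 at 4-fold. The median there was 1.33, and 1.71 by library totals, 1.45 with upper quartile factors and 2.04 with the OGA control. In OGA-KO at 28 days the 1 higher member became 0 at 5 CPM or 4-fold and 2 at 1.5-fold. Between the days, the 1 higher member in OGA-KO became 0 with a prior count of 10, at 5 CPM or at 4-fold, and the 0 lower members between OGA controls became 1 at 1.5-fold. Between the control lines, 4 higher members became 3 with a prior count of 10 or at 5 CPM, 5 at 1.5-fold and 1 at 4-fold, and 0 lower became 1 at 1.5-fold. Single ratios kept within their counting intervals in 30 of 30 cases with RLE factors or either prior count, 21 by library totals and 24 with upper quartile factors, and in 2 of 10 with the OGA control. All 9 that moved by library totals and all 6 that moved with upper quartile factors were ratios of OGT-KO against OGT control. In that pair S100a6 alone kept within its interval by library totals. The intervals thus do not cover the choice of scaling. No paired analysis was possible because each group had 1 library. Depth limits S100a6 and Anxa3 in the OGA libraries, at 24 to 89 counts.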
